A study of Homo sapiens with 6 samples.

Results

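The RNF genes are the human genes whose symbols join RNF, for RING finger, to a number, and 80 of the 23152 genes in the deposited count table carried such a symbol. They were taken by symbol and not by any measured value, though earlier results of these data were known when the members were chosen. RNF112, the gene that was overexpressed, is described apart from the other 79, which are called the RNF relatives. All samples were T24 cells, an established human bladder cancer cell line, and comprised 3 samples with vector (vector) and 3 samples overexpressing RNF112 (oeRNF112). The protocol text deposited with the samples describes transfection of siRNA, whereas the study's methods describe plasmid transfection and, for animal work, a stably infected line. Which of these gave the sequenced cells is not stated in the sources used here. Nor is it stated whether the replicates were separate cultures, so p-values measure the spread between these samples only.

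A RING finger is a zinc-binding fold that recruits an E2 enzyme loaded with ubiquitin and brings it to a substrate. Most RING proteins therefore act as E3 ubiquitin ligases, the last step of a cascade that runs from ubiquitin through an E1 activating enzyme and an E2 conjugating enzyme. The RNF symbol does not mark a single lineage. Some RNF proteins sit in chromatin, some span membranes, some belong to the RING-between-RING class that passes ubiquitin through a cysteine of their own, and some work in immune signalling. Their substrates, and the fate of these substrates, differ from gene to gene.

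Each library had from 40029547 to 41259569 counted reads. A gene without reads could still have had 3, which is at most 0.0749 CPM (counts scaled to the library total), counting error only. Of 12 epithelial and urothelial marker genes in the table, 6 had at least 1 RPKM (reads scaled by gene length and library total) in every sample, among them KRT7, KRT8 and KRT18, while CDH1, TP63, UPK2, UPK3A and KRT20 stayed under 10 counts. The mesenchymal markers VIM and CDH2 were abundant. No endothelial marker of 4 exceeded 11 counts in a library, and the 5 leukocyte markers together reached 1.35 to 1.90 RPKM in vector and 1.33 to 2.85 RPKM in oeRNF112. The summed level of the 12 epithelial and urothelial markers was lower in oeRNF112 in every sample, at 1470 to 1709 RPKM against 1804 to 2240 RPKM in vector. KRT7, KRT8 and KRT18 made up most of this sum, and KRT7 and KRT18 were each lower without overlap. EPCAM and PPARG went the other way without overlap. EPCAM was at 2.31 to 2.92 RPKM in oeRNF112 and 1.05 to 1.59 RPKM in vector, and PPARG at 8.62 to 8.67 RPKM and 7.04 to 7.94 RPKM. The 5 fibroblast markers summed to 1.74 to 1.84 RPKM in oeRNF112 and 1.09 to 1.56 RPKM in vector, also without overlap, with COL1A1 above 1 RPKM in every sample and COL1A2, DCN and LUM at 3 counts or fewer. The part of these differences in the results on RNF genes was not tested.

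RNF112 was nearly silent in vector and was the most abundant RNF gene in every oeRNF112 sample. The protein, also known as ZNF179, has a GTPase-like domain beside its RING finger. Reads on the gene numbered 27, 19 and 24 in vector against 29753, 36963 and 31712 in oeRNF112, so the groups were far apart, at a log2 fold change of 10.37 (SE 0.177 for its standard error, adjusted p = 7.4e-10 by the quasi-likelihood test of edgeR). Its RPKM went from 0.0766 ± 0.0126 (SD, n = 3) in vector to 108.8 ± 11.7 (SD, n = 3) in oeRNF112, which moved it from rank 65 or 66 among the 80 RNF genes to rank 1. Reads on RNF112 made up 0.0189% ± 0.0036 (SD, n = 3) of all reads on RNF genes in vector and 19.9% ± 1.95 (SD, n = 3) in oeRNF112. Among all genes it stood at rank 480 to 580 by RPKM in oeRNF112. The reads can come from the introduced construct as well as from the gene at chr17:19411232-19417276 (GRCh38.p14), and the RPKM uses the length of the annotated gene.

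The summed level of the relatives did not separate the groups after normalization. Their summed CPM, normalized with TMM factors (edgeR's scaling, set so that most genes do not differ), was 3144 ± 56.2 (SD, n = 3) in vector and 3169 ± 14.2 (SD, n = 3) in oeRNF112, and the values of the groups overlapped. On the RPKM scale, which uses plain library totals, the sum was 785.2 ± 6.58 in vector and 839.1 ± 6.96 in oeRNF112 (SD, n = 3 each), and here the groups did not overlap. Single relatives covered a wide range of levels, with 56 of the 79 at a mean of at least 1 RPKM and 26 at a mean of at least 10 RPKM.

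RNF187 had the highest level among the relatives, at 57.9, 54.1 and 60.6 RPKM in vector and 58.2, 60.0 and 52.1 RPKM in oeRNF112. RNF114 came next, at 46.9, 45.7 and 46.2 RPKM in vector and 54.9, 57.3 and 53.1 RPKM in oeRNF112. In the oeRNF112 samples the values of RNF187 and RNF114 overlapped, whereas in vector every value of RNF187 lay above every value of RNF114. RNF10, a ligase of ribosomal proteins of the small subunit, followed at 37.4 ± 1.09 RPKM in vector, then RNF145 at 36.6 ± 2.63 RPKM, RNF4 at 34.7 ± 0.99 RPKM and RNF167 at 34.3 ± 3.13 RPKM (SD, n = 3 each), and neighbours in this order did not differ beyond their spread. In oeRNF112 RNF145 had left this group, at 25.2 ± 2.52 RPKM (SD, n = 3).

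**Figure D1:**
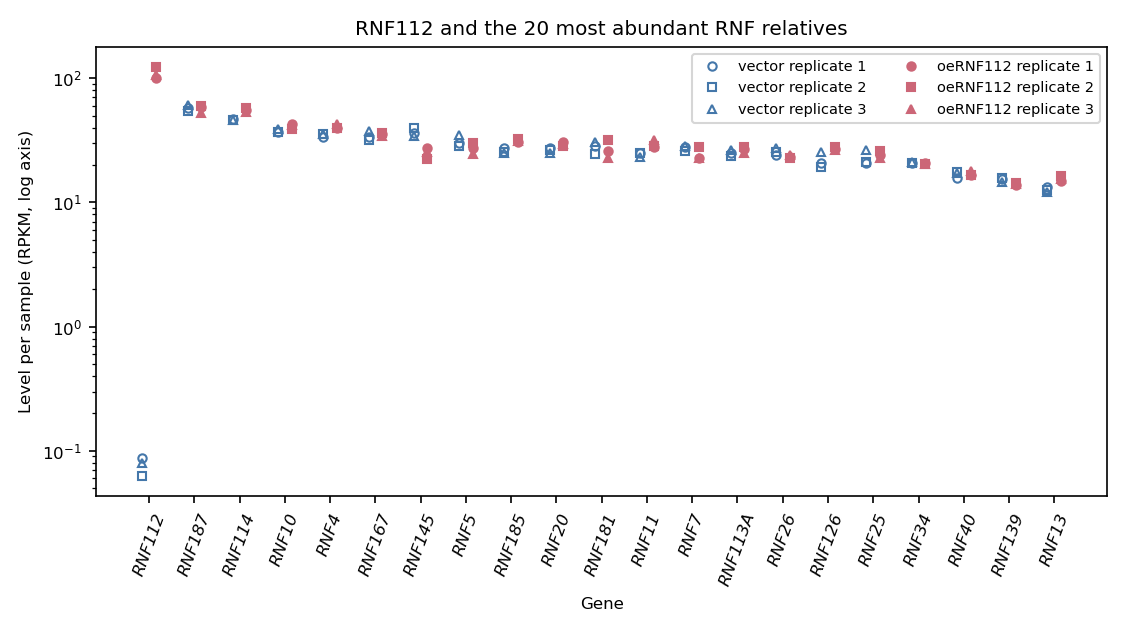
Level of RNF112 and of the 20 relatives with the highest mean RPKM, as RPKM on a log axis, with 1 point per sample (open, vector; filled, oeRNF112). RNF112 lies below 0.1 RPKM in vector and near 100 RPKM in oeRNF112, while the points of the relatives stay between 12.1 and 60.6 RPKM.

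At the other end, 11 relatives had too few reads to be tested. RNF43, which removes Frizzled receptors from the cell surface, had no read in vector and 1, 0 and 1 reads in oeRNF112. No sample had more than 7 counts for RNF133, RNF148, RNF151, RNF175, RNF183, RNF212, RNF222, RNF224 or RNF39. RNF165 had 6, 8 and 6 counts in vector and 5, 2 and 17 in oeRNF112. For these genes no difference was detectable at this depth.

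The comparison of oeRNF112 with vector asked which relatives changed when RNF112 was overexpressed. Of the 68 relatives tested, 8 passed an adjusted p under 0.05 (edgeR's quasi-likelihood test, adjusted by Benjamini-Hochberg over all 14467 genes tested, with SE for the standard error of a log2 fold change), or 11.8%, against 18.1% of all genes. Higher in oeRNF112 were RNF168, RNF14, RNF149, RNF125, RNF144A, RNF150 and RNF223, which are 10.3% of the relatives tested against 9.97% of all genes. RNF150 and RNF223 met the filter on low counts through oeRNF112 alone, since no vector library reached the 0.247 CPM it asks for, so they could be called only as higher. With the filter set to at least 10 counts in every sample both dropped out, and 5 relatives were higher and 1 lower of 66 tested. Over all genes with that filter, 1342 were higher and 1083 lower of 13451 tested. Among the 68 relatives, RNF145 alone was lower, 1.47% of the relatives against 8.14% of all genes. The share that was higher is near that of all genes and is no result about the relatives, and whether the share that was lower differs from the background was not tested. The median log2 fold change of the relatives was 0.08, with quartiles of -0.07 and 0.26, beside a median of 0.00267 and quartiles of -0.20 and 0.24 over all genes. On this scale 43 relatives had a fitted value above 0 and 25 a value below 0.

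**Figure D2:**
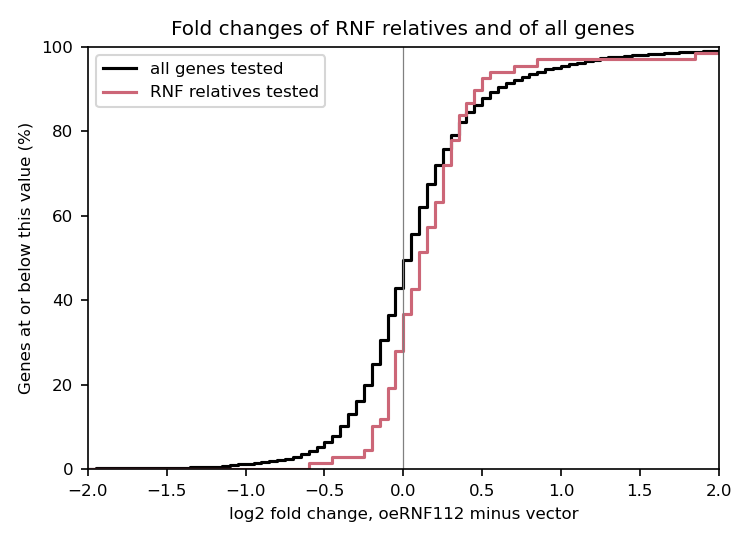
Percent of genes at or below each log2 fold change (oeRNF112 minus vector), for the 68 relatives tested and for all 14467 genes tested. The curve of the relatives passes 36.8% at a fold change of 0, where the curve of all genes passes 49.6%, and 92.6% at 0.5, where all genes pass 88%.

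RNF145 was the only relative that passed the test as lower. It spans the membrane of the endoplasmic reticulum, carries a sterol-sensing domain and takes part in the sterol-driven degradation of HMG-CoA reductase, and its gene lies at chr5:159157409-159210053. It had 7174, 7648 and 6606 counts in vector and 5284, 4377 and 4923 counts in oeRNF112. All 3 oeRNF112 samples were below all 3 vector samples. The level was 64.4% of vector, a log2 fold change of -0.63 (SE 0.0937, adjusted p = 0.00206). It passed the test in each of the 6 fits that left out 1 sample, with log2 fold changes from -0.70 to -0.56.

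RNF139, or TRC8, is the other relative with a sterol-sensing domain, and it is named here after its values were seen. It had 2025, 2052 and 1867 counts in vector and 1757, 1867 and 1811 counts in oeRNF112. After normalization the groups did not overlap, at a log2 fold change of -0.21 (SE 0.0847, adjusted p = 0.117), so that the gene did not pass. The difference between RNF145 and RNF139 was not tested.

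RNF14 and RNF144A are RING-between-RING ligases, and both rose. Of the 8 members of this class tested, these 2 passed, beside 18.1% of all genes. RNF14, which acts on stalled translation complexes, had 2142, 2115 and 2071 counts in vector and 2753, 3074 and 2844 counts in oeRNF112. The vector values were tightly grouped and all oeRNF112 values lay above them, at a log2 fold change of 0.37 (SE 0.0864, adjusted p = 0.0162). RNF144A had 123, 115 and 85 counts in vector and 179, 154 and 215 in oeRNF112, for a log2 fold change of 0.68 (SE 0.19, adjusted p = 0.0345). These groups did not overlap either, but the counts varied more within each group. RefSeq lists 4 pseudogenes of RNF14, and reads from them could be counted on the gene. Of the other 6 members of this class none passed, and RNF31, or HOIP, the catalytic subunit of the complex that builds linear ubiquitin chains, had the highest level among them. RNF31 was at 11.8, 12.8 and 12.4 RPKM in vector and 14.4, 14.8 and 14.4 RPKM in oeRNF112, with an adjusted p of 0.268.

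Among the 11 chromatin and DNA-damage ligases tested, RNF168 alone passed, beside 18.1% of all genes, and it rose. It extends the ubiquitin mark that RNF8 places on chromatin at DNA breaks. RNF168 had 1265, 1392 and 1230 counts in vector and 1781, 1693 and 2088 counts in oeRNF112. The groups did not overlap, and the log2 fold change was 0.44 (SE 0.0998, adjusted p = 0.0158). The other 10 tested members of this group did not pass. Fitted values were above 0 for 9 of the 11, and for 43 of the 68 relatives tested. Of all genes, 49.6% were at or below 0, and whether the group differs was not tested. RNF8 had a log2 fold change of 0.14 (adjusted p = 0.289), RNF20 and RNF40, which together ubiquitinate histone H2B, had values of 0.08 and -0.07, and RNF2, the catalytic RING1B subunit of Polycomb repressive complex 1, had 0.02. RNF4, a ligase of SUMO-modified proteins and the most abundant of the group, had 0.13 (adjusted p = 0.262).

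RNF149 and RNF150 belong to the transmembrane ligases with a protease-associated domain, which sit in endosomal and lysosomal membranes or at the cell surface. Of the 6 members tested, these 2 passed, beside 18.1% of all genes. RNF149 had 1968, 2051 and 2058 counts in vector and 2858, 2630 and 2758 counts in oeRNF112. Every oeRNF112 value was above every vector value, at a log2 fold change of 0.36 (SE 0.0838, adjusted p = 0.017). RNF150 was close to silent, with 8, 6 and 6 counts in vector and 16, 20 and 41 in oeRNF112, at a log2 fold change of 1.84 (SE 0.474, adjusted p = 0.0254), and it was tested only because of its reads in oeRNF112. With limma on log2(RPKM + 1) RNF150 did not pass (log2 difference 0.06, adjusted p = 0.285). The same held with limma on log2(RPKM + 0.1) (log2 difference 0.42, adjusted p = 0.132). Nor did RNF150 pass when replicate number was added to the edgeR fit (adjusted p = 0.0701). RNF167, the most abundant member, had overlapping groups and a log2 fold change of -0.05, and this turned to 0.05 when libraries were scaled by their totals.

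RNF223 showed the largest fold among the relatives that passed and the smallest counts. It stands with the ligases of the endoplasmic reticulum and other membranes. Of these 14 were tested, and RNF223 passed as higher and RNF145 as lower, beside 18.1% of all genes that passed. RNF5, a ligase of the degradation pathway at the endoplasmic reticulum, was at -0.27 with overlapping groups (adjusted p = 0.15). RNF223 had 1, 0 and 0 counts in vector and 13, 24 and 13 counts in oeRNF112 (adjusted p = 0.0035). The summed counts were 1 and 50, a ratio of 50.5 with an exact 95% interval from 8.65 to 2033 for counting error only, so the size of the change was poorly determined. The gene was tested only because of its reads in oeRNF112. With a mean of 0.111 RPKM over the 6 samples it stayed far below RNF145 or RNF14 in level.

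Among the 8 immune-signalling ligases tested only RNF125 passed, beside 18.1% of all genes. RNF125 limits RIG-I, the sensor of viral RNA encoded by DDX58, and it had 161, 171 and 169 counts in vector and 248, 228 and 277 counts in oeRNF112. The groups did not overlap and the log2 fold change was 0.51 (SE 0.137, adjusted p = 0.0306). RNF135, or Riplet, which activates RIG-I, had a log2 fold change of -0.14 with overlapping groups (adjusted p = 0.407). RNF114, the most abundant member, had 0.16 (adjusted p = 0.207).

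RNF213, a giant ligase known to be induced by interferon and named here after its values were seen, did not pass. It had 7364, 11650 and 6144 counts in vector and 8139, 6509 and 10150 counts in oeRNF112. The highest value of all 6 was in vector replicate 2, and the groups overlapped widely. Its standard deviation over the vector replicates, 0.451 on the log2 CPM scale, was the largest of the 56 relatives with a mean of at least 1 RPKM, whose median was 0.0916. The log2 fold change was -0.10 (adjusted p = 0.78) with all samples and 0.20 (adjusted p = 0.354) without vector replicate 2.

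Of the 14 tested ligases of cytosolic quality control, cullin complexes and signalling, 0 passed with edgeR, DESeq2 or limma, and 0 had an unadjusted p under 0.05. Over all genes, 18.1% passed with edgeR and 33.1% had an unadjusted p under 0.05, and whether this group of 14 differs from them was not tested. Fitted values were below 0 for 10 of the 14, with a median of -0.03, while 49.6% of all genes were at or below 0. RNF7, the RING subunit of cullin-5 ligases, had a log2 fold change of -0.25 (adjusted p = 0.155), and RNF126 and RNF115, both partners of the chaperone BAG6, had 0.21 and -0.08. RNF187 was at -0.11 (adjusted p = 0.448). The 7 tested relatives without an assigned role gave the same counts of 0, and RNF215, the most abundant of them, was at 0.06. By unadjusted p, the endoplasmic reticulum and other membrane group had 5 higher and 4 lower of 14. The protease-associated group had 3 higher and 1 lower of 6, and the RING-between-RING group 3 higher of 8. The immune-signalling group had 2 higher of 8 and the chromatin group 1 higher of 11. Whether any role group differs from all genes was not tested.

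**Figure D3:**
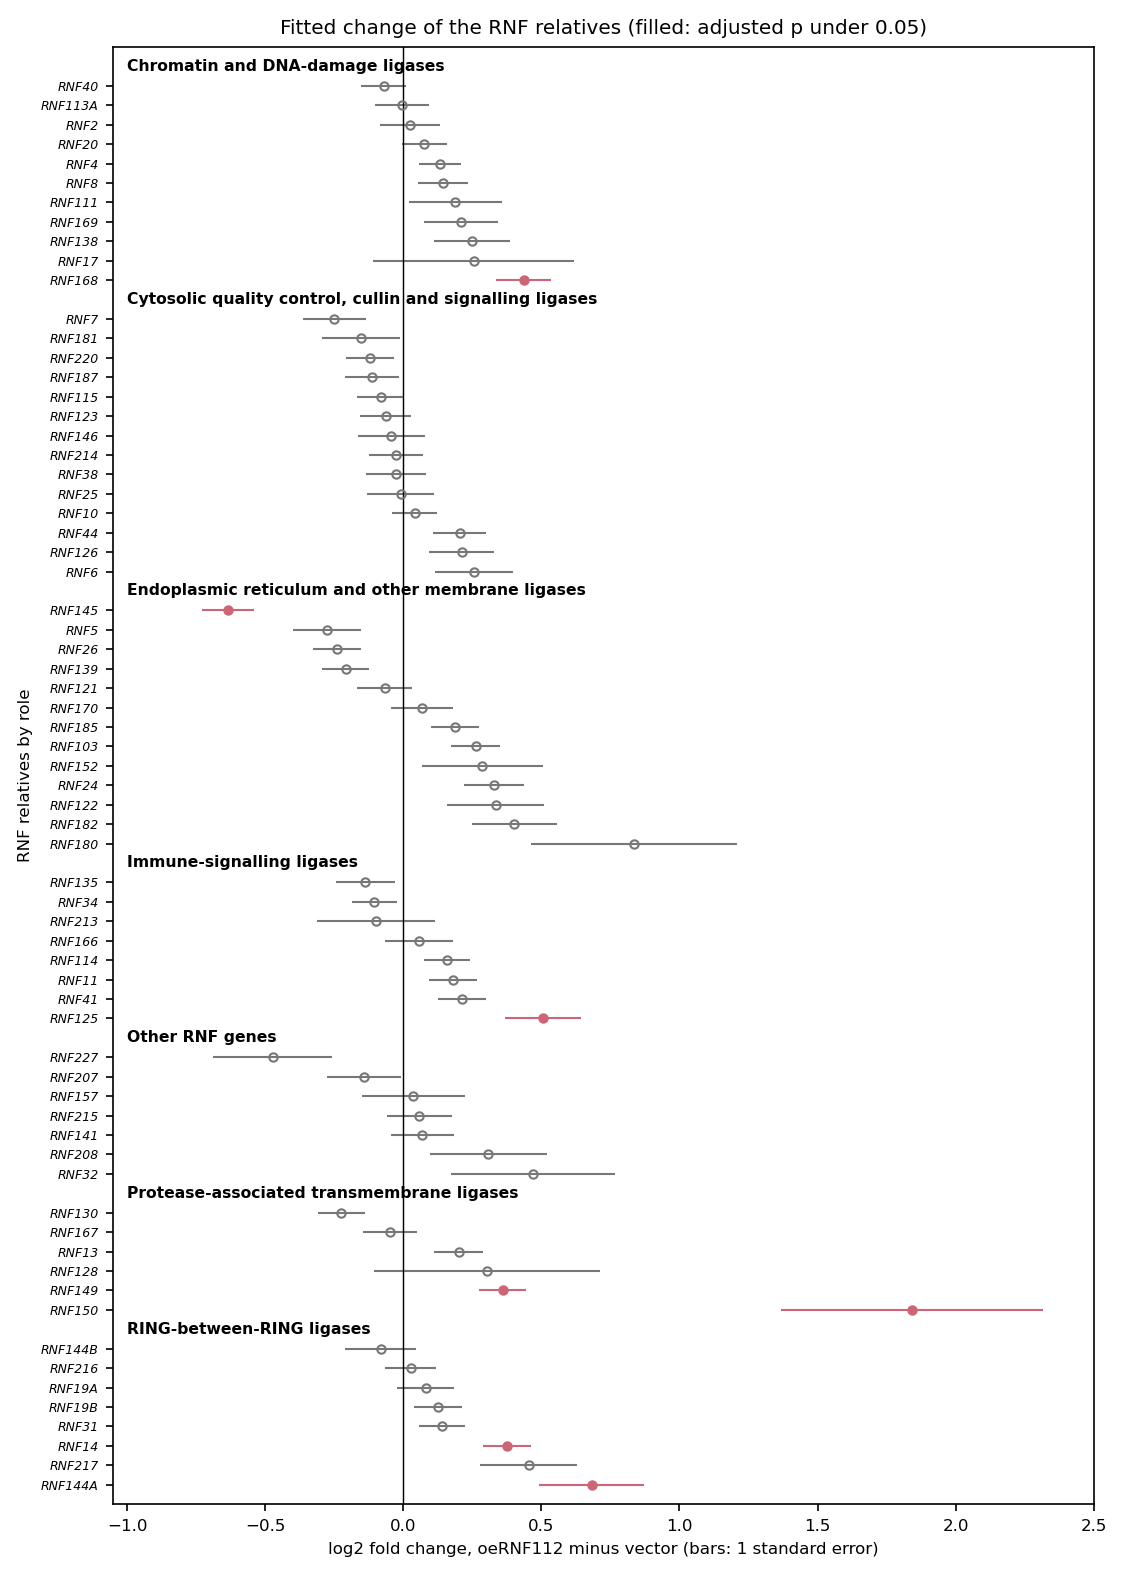
Fitted log2 fold change (oeRNF112 minus vector) of 67 tested relatives by role, with bars of 1 standard error and filled points for an adjusted p under 0.05. RNF223, at 5.13, lies outside the axis and is left out. RNF145, at -0.63, is the only filled point below 0.

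Beyond the 8 relatives that passed, 19 had values that did not overlap between the groups. In all, 27 of the 68 did not overlap, 39.7% against 36.8% of all genes, with 21 higher in oeRNF112 (18.8% of all genes) and 6 lower (17.9% of all genes). The 19 included RNF24 at 0.33 (adjusted p = 0.0638), RNF103 at 0.26 (adjusted p = 0.0666) and RNF26, a ligase of the endoplasmic reticulum that holds endosomes near the nucleus, at -0.24 (adjusted p = 0.085). Among relatives with a mean of at least 1 RPKM, no standard error was above 0.214 and no fitted change was farther from 0 than that of RNF145.

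Most of the calls were lost when some sample was left out. RNF145 and RNF223 passed in all 6 fits that left out 1 sample. RNF14 and RNF149 passed in 4 each, RNF168 and RNF150 in 3 each, and RNF125 and RNF144A in 2 each. The direction was the same in every one of these fits. With all samples, RNF223 and RNF150 met the filter on low counts through oeRNF112 alone, so they could be called only as higher. Without vector replicate 1, RNF223 was the 1 relative that was higher. Without vector replicate 2 there were 10, with RNF180, RNF217 and RNF24 added. Omitting vector replicate 3 left 4 and lost RNF150, RNF125 and RNF144A, and omitting oeRNF112 replicate 1 left 2, RNF150 and RNF223. Omitting oeRNF112 replicate 2 gave 8 with RNF217, and RNF7 was then lower as well, while omitting oeRNF112 replicate 3 left 3, RNF14, RNF149 and RNF223. The share of all genes called was 18.1% with all samples, 7.18% in the fit lacking vector replicate 1 and 23% in that lacking vector replicate 2. It was 13.1% in the fit lacking vector replicate 3. The fits lacking oeRNF112 replicates 1, 2 and 3 gave 8.59%, 15.9% and 9.84%. Whether the relatives moved with the whole table was not tested. Scaling by library totals gave 13 higher relatives and 1 lower, with RNF103, RNF114, RNF13, RNF185, RNF24 and RNF41 added. Over all 14467 genes, 2020 were then higher and 659 lower. Of all genes called, 75.4% were then higher, against 55% with the TMM factors.

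**Figure D4:**
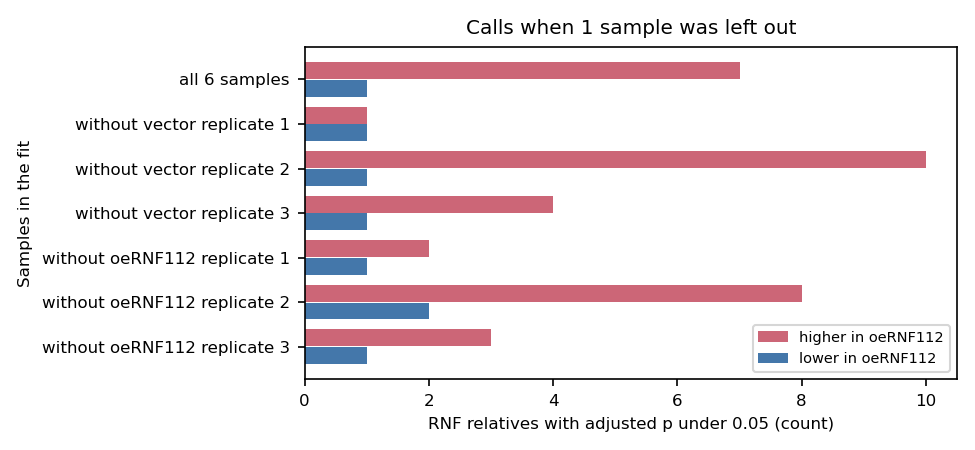
Number of relatives with an adjusted p under 0.05, higher or lower in oeRNF112, with all 6 samples and without each sample in turn. The count of higher relatives runs from 1 to 10 and the count of lower relatives is 1 or 2.

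The promoters of 5 relatives that passed are shown, 4 because they had the most reads and RNF223 because it had the largest fold. Each is the stretch of 250 bases before a RefSeq start (GRCh38.p14), 5′ to 3′ on the strand of the gene, taken from the listed start with the most CpG. Capitals mark matches, on either strand, to CACGTG (E-box, the motif of MYC and MAX), GGGCGG (GC box), CCAAT and TATAAA. TCACNCCAC (SRE, the sterol response motif), TGANTCA (AP-1) and the interferon-stimulated response element were also searched and had no match in these windows.
RNF145: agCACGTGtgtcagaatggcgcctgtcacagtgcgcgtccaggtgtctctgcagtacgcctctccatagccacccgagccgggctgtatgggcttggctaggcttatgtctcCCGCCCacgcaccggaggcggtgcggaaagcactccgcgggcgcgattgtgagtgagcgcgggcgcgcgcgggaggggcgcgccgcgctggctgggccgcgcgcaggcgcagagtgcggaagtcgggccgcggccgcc
RNF14: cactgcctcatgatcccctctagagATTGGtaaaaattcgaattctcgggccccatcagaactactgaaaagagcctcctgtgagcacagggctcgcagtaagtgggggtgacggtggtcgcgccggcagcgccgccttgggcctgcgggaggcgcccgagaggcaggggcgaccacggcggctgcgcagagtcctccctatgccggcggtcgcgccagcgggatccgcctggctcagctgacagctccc
RNF168: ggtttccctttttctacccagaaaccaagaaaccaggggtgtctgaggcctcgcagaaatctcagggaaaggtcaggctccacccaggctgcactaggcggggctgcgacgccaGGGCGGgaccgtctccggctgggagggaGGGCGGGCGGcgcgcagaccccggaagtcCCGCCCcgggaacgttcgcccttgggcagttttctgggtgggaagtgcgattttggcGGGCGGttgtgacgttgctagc
RNF149: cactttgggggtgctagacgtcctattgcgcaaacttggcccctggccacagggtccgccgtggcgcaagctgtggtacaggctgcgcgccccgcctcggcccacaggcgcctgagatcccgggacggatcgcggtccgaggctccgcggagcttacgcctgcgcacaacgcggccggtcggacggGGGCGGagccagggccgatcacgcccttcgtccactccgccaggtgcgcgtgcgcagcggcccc
RNF223: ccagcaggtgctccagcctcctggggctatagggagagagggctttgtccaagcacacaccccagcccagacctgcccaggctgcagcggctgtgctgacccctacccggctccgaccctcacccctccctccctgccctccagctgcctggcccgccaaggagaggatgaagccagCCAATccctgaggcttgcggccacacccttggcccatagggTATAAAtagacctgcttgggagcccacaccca

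These windows lie at chr5:159209554-159209803 (RNF145, minus strand), chr5:141968855-141969104 (RNF14, plus strand), chr3:196503769-196504018 (RNF168, minus strand), chr2:101308702-101308951 (RNF149, minus strand) and chr1:1074307-1074556 (RNF223, minus strand). RNF145, the relative that passed as lower, had the only E-box among the 5, from 248 to 243 bases before the start. RefSeq lists 5 starts for RNF145, and the E-box was in the window of 1 of them. RNF223, almost silent in vector, had a TATA box from 32 to 27 bases before its start and 5 CpG, against 35 in RNF145 and 33 in RNF149. RNF168 had 5 GC boxes, of which 2 overlapped, and RNF14 had none. Across the 98 windows listed for 66 relatives, an E-box was in 7.14%, against 6.34% of the 35116 windows of all genes, and a GC box in 59.2% against 42.6%. A CCAAT box was in 35.7% against 32%, a TATA box in 9.18% against 10.7%, an AP-1 motif in 4.08% against 6.57%, the interferon-stimulated response element in 2.04% against 3.02% and the sterol response motif in 1.02% against 0.883%. The median window of the relatives had 18 CpG and 62.8% G and C, against 11 CpG and 58% in all windows. A match describes the letters only.

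The rest of the ubiquitin cascade was read from 4 lists of genes, of which 85 were tested, with 5 higher and 5 lower in oeRNF112. That is 5.88% in each direction, against 9.97% higher and 8.14% lower of all genes. Whether these shares differ was not tested, and no result about the cascade is drawn from the count. Their median log2 fold change was 0.06. Of the 4 genes that code for ubiquitin, 1 passed, 25% against 18.1% of all genes. This was RPS27A, which fell by 0.49 in log2 units (SE 0.147, adjusted p = 0.0439). Its counts were 44787, 34763 and 44625 in vector and 30720, 36184 and 26370 in oeRNF112, so vector replicate 2 lay beside oeRNF112 replicate 2. Of 10 E1 activating enzymes and relatives, 1 rose and 2 fell, 30% in all against 18.1% of all genes. UBA6, the second E1 enzyme for ubiquitin, rose by 0.41 (adjusted p = 0.0461). UBA7, the E1 enzyme of ISG15, and MOCS3 fell by 0.39 and 0.43 (adjusted p of 0.0482 and 0.0323). Whether these short lists differ from all genes was not tested.

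Of 36 E2 enzymes tested, 1 rose and 1 fell, 5.56% in all against 18.1% of all genes. UBE2E3 had 4241, 4011 and 4344 counts in vector and 3337, 3342 and 3072 in oeRNF112, at a log2 fold change of -0.45 (SE 0.0888, adjusted p = 0.00824). UBE2D1, an E2 enzyme that many RING ligases use, had 847, 775 and 824 counts in vector and 952, 1301 and 1379 in oeRNF112, a log2 fold change of 0.49 (SE 0.136, adjusted p = 0.0339). UBE2E3 thus moved down and UBE2D1 up, each in all 3 oeRNF112 samples.

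Of 35 tested partners and targets of RNF ligases, 3 rose and 1 fell, 11.4% in all against 18.1% of all genes. TNFAIP3 encodes A20, the NF-kB inhibitor that works with RNF11, and it had 5450, 5889 and 5094 counts in vector and 12340, 11192 and 15217 in oeRNF112. This log2 fold change of 1.16 (SE 0.112, adjusted p = 0.000283) stood beside 0.18 for RNF11, which did not pass. DDX58, the target of RNF125 and RNF135, rose by 0.53 (adjusted p = 0.00363), and MAVS, the adaptor of RIG-I, fell by 0.43 (adjusted p = 0.0356). AXIN2, a target of RNF146, rose from 22, 37 and 32 counts to 58, 75 and 76 counts (log2 fold change 1.12, adjusted p = 0.0206), and RNF146 itself was at -0.04. TNFAIP3 and DDX58 passed in all 6 fits that left out 1 sample, UBE2E3 in 5, AXIN2 in 4, UBA6, UBE2D1 and RPS27A in 2 each, and MOCS3, UBA7 and MAVS in 1 each.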

How the data were processed

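RNA from 6 samples of T24 cells was sequenced after a stranded mRNA library preparation. The authors deposited a table of raw, unscaled gene counts and a table of RPKM values. The submitters' processing notes name Trimmomatic 0.36, featureCounts, Subread 1.5.1 and GRCh38, and the aligner, the annotation release and the strand setting are not given in the sources used here. The RPKM values could be rebuilt from the counts, the column totals and 1 length per gene in 13451 of 13451 genes examined, at a relative tolerance of 1e-04. No 2 samples were copies of each other.

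Counts were analysed with edgeR 4.0.16 in R 4.3.3 (its filter on low counts, TMM factors between 0.957 and 1.05, quasi-likelihood test, Benjamini-Hochberg adjustment over all genes tested, threshold 0.05). The standard error is the fold change divided by the square root of the F statistic. Alternatives were DESeq2 1.42.0, its size factors, library totals, other filters, limma 3.58.1 on log2(RPKM + 1) and log2(RPKM + 0.1), a replicate block, and each sample left out in turn. The fits were tested on simulated data.

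The members, role groups and gene lists were chosen with earlier results of these data known. Genes named are RNF112, relatives that passed, the most abundant relative of each role group, at most 5 genes that passed per ubiquitin list, and any other member named was chosen after its values were seen. RefSeq coordinates and promoters (GRCh38.p14) were matched by symbol, for 79 and 66 of the 80 genes. RefSeq lists pseudogenes, absent from the table, of 12 RNF genes, whose reads could be shared, and 8 entries are antisense, divergent or read-through transcripts of RNF genes, so these genes are less certain. Replicate numbers were not treated as pairs, since deviations of same-numbered samples correlated at -0.181, -0.539 and -0.454.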

Additional observations from a re-analysis of the deposited data

How the results depend on the processing

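RNF112 and RNF145 passed the test in all 15 alternatives and RNF223 in the 14 that kept it. In the edgeR test of all samples, RNF223 met the filter on low counts through oeRNF112 alone, so it could be called only as higher. None of the 8 relatives that passed turned in direction. Library totals gave 13 higher relatives of 68, 11 higher and 1 lower ubiquitin cascade genes and a median of the relatives of 0.172 (0.0962 over all genes). Over all 14467 genes, 2020 were then higher and 659 lower. The limma fits gave 13 higher relatives of 68 with log2(RPKM + 1), 14 of 68 with log2(RPKM + 0.1) and 11 of 79 without a filter (chosen after seeing the data). The medians of the relatives were 0.108, 0.167 and 0.0648, beside 0.0582, 0.0925 and 0.00976 over all genes. Over all genes, 1863 and 1919 of 14467 were higher in the 2 fits with the filter, and 1337 of 23152 without it. Whether the relatives differ from all genes in this was not tested. For the cascade the limma fits gave 11 and 10 higher genes with the filter and 1 lower gene in each. The median was 0.126 with DESeq2 and 0.134 without a filter on low counts, both over 79 relatives. Over all genes these fits gave medians of 0.0233 and 0.0313. RNF167 changed sign with library totals (0.0459) and in the limma fits (0.0478, 0.0491 and 0.0478).

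With the replicate block, 1 relative was higher and 1 lower, and 2 cascade genes were higher and 0 lower, of 876 genes called, but the samples share only a number. Of the vector samples none correlated best with the oeRNF112 sample of its own number. By unadjusted p, 5 cascade genes were lower in the edgeR fit with the block. Without the block and by adjusted p, DESeq2 called 7 lower and limma on log2(RPKM + 1) called 1.

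Over the fits that left out 1 sample, higher relatives went from 1 to 10 and lower relatives from 1 to 2 (RNF7 without oeRNF112 replicate 2). Higher cascade genes went from 2 to 8, and lower ones from 0 (6 by unadjusted p, without vector replicate 1) to 6. The median of the relatives went from 0.0741, without oeRNF112 replicate 3, to 0.129, without vector replicate 1. Over all genes these fits gave medians of -0.00495 and 0.0113. RNF167 ranged from -0.122 to 0.0336, the latter without vector replicate 3, and RNF215 from -0.0129, without vector replicate 2, to 0.132. The cause of these changes was not tested. Relatives with few reads, such as RNF43, cannot be compared at this depth.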
